A study of Mus musculus with 20 samples.

Results

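The genes described here are 10 cytokines and chemokines that cells of the healthy brain make, taken by their symbols from the 48709 genes counted: Il34, Csf1, Il33, Il18, Il16, Tgfb1, Tgfb2, Tgfb3, Cx3cl1 and Cxcl12. RNA was measured in the hippocampus of 20 young adult mice, with 5 animals in each of 4 groups. Their strain is C57BL/6 in the labels and C57BL/6J in the methods. The dams had breathed either filtered air or nPM, the nano-sized particles of urban air pollution, from gestational day 2 to birth. Exposures ran for 5 hours a day on 3 days a week, at a concentration that the labels give as 300 mg/m3 and the methods in μg/m3. The offspring of each exposure came from 5 litters, and the litter of each animal is not given. Some animals may be littermates, and no interval or p-value here accounts for litter. Control females were 17.71 to 18.29 weeks old and nPM females 18.0 to 18.29 weeks. Control males were 18.57 to 19.14 weeks old and nPM males 18.86 to 19.14 weeks. Ages of females and males did not overlap, so sex and age cannot be told apart in these samples. The methods also report injections of 5-ethynyl-2′-deoxyuridine (EdU), a label of dividing cells, into male mice, and say that all animals received it. As they describe this for males only, EdU cannot be told apart from sex here either.

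Cytokines and chemokines are small proteins by which cells instruct each other. In the adult brain some of them are made without injury or infection. Neurons and glia supply the growth factors on which microglia live, transforming growth factor β holds microglia in their resting state, and chemokines anchored on or released by neurons and vessels guide microglia and neural precursors. All 10 genes passed the filter on low counts, so that each was tested.

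Each library was counted on its own, with no pooling of animals. Reads counted on genes ran from 22307445 to 35480715 per sample in control females and from 19092067 to 29252770 in nPM females. In control males they ran from 28026459 to 38663408 and in nPM males from 31189000 to 37378472. Levels are given as RPKM, read counts scaled to the length of the gene and to the depth of the library, with library sizes adjusted by TMM, a scaling that sets the bulk of genes equal between samples. TMM moved the library sizes by factors of 0.958 to 1.06. A count of 0 allows up to 3 counts at these depths, a limit that covers counting error alone. Replicates of a group differed more than counting does, with squared differences 14.1 to 76.7 times those of counting noise over 40 pairs.

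The tissue label was checked against genes that mark the hippocampus. Prox1, a factor of dentate granule neurons, had a mean of 12.7 RPKM, and the CA1 pyramidal gene Wfs1 had 20.3 RPKM. Fibcd1 had 14.8 RPKM and Zbtb20 27.1 RPKM. These markers, with Neurod6, Slc17a7, Neurod2 and Lhx2, were counted in all 20 samples. Brain expression held clearly for 9 of the 10 cytokine genes, whose means were at least 1 RPKM. Tgfb1 was the exception, with a mean of 0.181 RPKM.

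The 10 levels spread over a wide range. Cx3cl1 was highest with a mean of 67.2 RPKM, above the levels of 98.2% of the 22018 protein-coding genes. The order then ran through Il33, Il18, Il34, Tgfb2, Il16, Csf1, Cxcl12 and Tgfb3 to Tgfb1, which stood above 34.5% of coding genes. Neighbours in this order were mostly separate within samples, with the higher gene above the lower one in 18 to 20 of 20 samples. In RPKM, Il33 and Il18 did not differ beyond their spread. Il33 was above Il18 in 12 of 20 samples, and their means had a ratio of 1.09. The place of Il18 in the order rests on its deposited length of 714 bases, against 2886 for Il33. In CPM, the counts scaled to library size and not to gene length, Il18 had 10.8 to 18.0 and Il33 42.2 to 98.2. Whether the deposited length covers all of the Il18 transcript was not tested. Summed over the 10 genes, the level was 112 to 161 RPKM per sample, with a median of 137. Cx3cl1 alone held 37.1% to 61.2% of that sum. The plot of levels in each sample shows the order and the narrow spread within most genes.

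**Figure D1:**
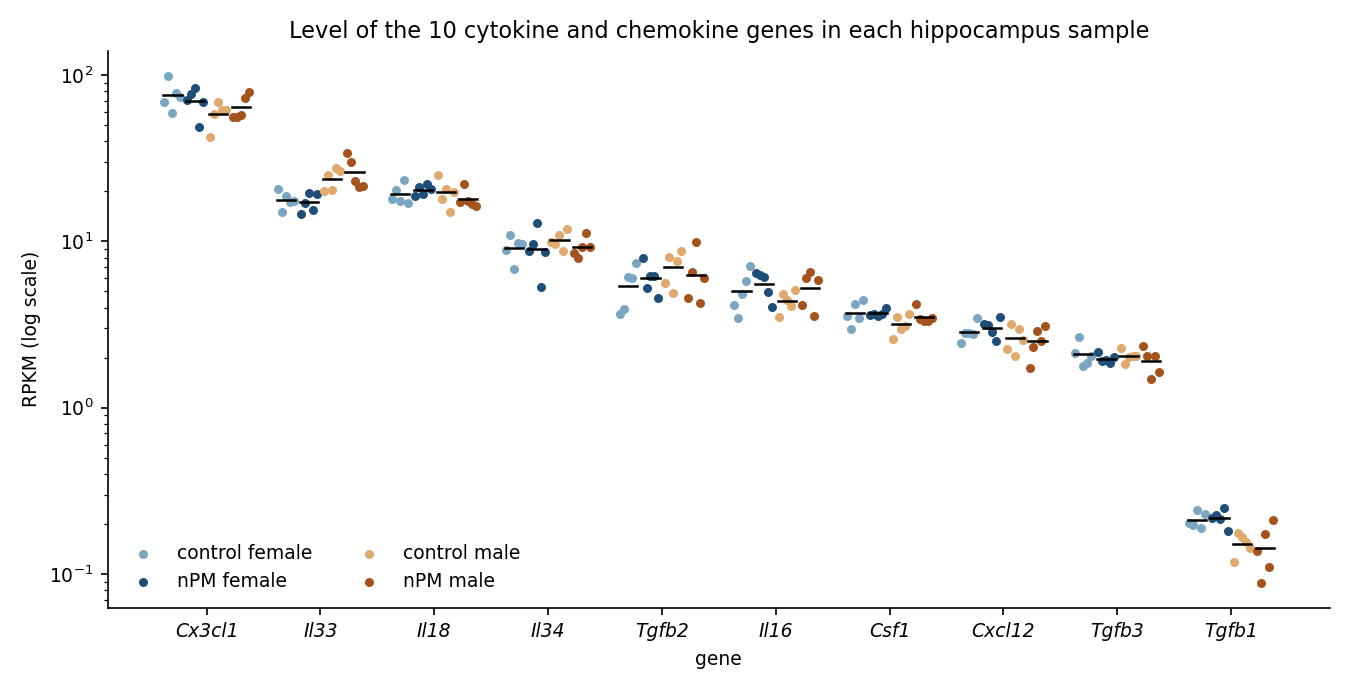
Level of the 10 cytokine and chemokine genes (RPKM, log axis) in each of the 20 samples, coloured by group, with a black line at each group mean. Cx3cl1 lies between 42.2 and 98.7 RPKM, Tgfb1 between 0.0889 and 0.249 RPKM, and the exposure groups overlap for every gene.

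Il34 and Csf1 are the ligands of Csf1r, the receptor that microglia need to survive. Il34 (ENSMUSG00000031750.15, chr8:110741829-110805924 in mm10, minus strand), the ligand made mostly by neurons, had 9.42 ± 1.69 RPKM (SD, n = 20). It was lowest in nPM female 4 with 5.35 RPKM and highest in nPM female 3 with 12.9 RPKM. Il34 overlaps Gm15894 and Gm15895, and the strand setting of the counting is not given in the sources used here, so reads shared with these genes are uncertain. Csf1 (ENSMUSG00000014599.10, chr3:107741048-107760469, minus strand), the ligand made mostly by glia, had 3.53 ± 0.446 RPKM with a range of 2.59 to 4.46. Its coefficient of variation over samples, 12.6%, was the lowest of the 10. Csf1r itself had 15.5 ± 1.87 RPKM (10.8 to 19.1), above both ligands in mean level. Ptprz1, another reported receptor of the Il34 protein, had a mean of 27.5 RPKM. Ptprz1, and Il1rap and Casp1 in the next group, are named after their values were seen.

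Il33 and Il18 belong to the interleukin-1 family, and both act on cells that carry the matching receptor. Il33 (ENSMUSG00000024810.16, chr19:29925114-29960718, plus strand) encodes a nuclear protein of astrocytes and oligodendrocytes that is set free as an alarm signal. Its level was 21.2 ± 5.14 RPKM (SD, n = 20), from 14.6 in nPM female 1 to 34.0 in nPM male 1. The receptor gene Il1rl1 was barely counted, with 5 to 15 counts per sample and a mean of 0.0458 RPKM, while its partner Il1rap had a mean of 10.4 RPKM. Il18 (ENSMUSG00000039217.12, chr9:50575273-50581837, plus strand) encodes a precursor that caspase-1 cleaves. It had 19.4 ± 2.6 RPKM, with a range of 15.1 to 25.1, from 273 to 598 counts on a deposited length of 714 bases. Its receptor gene Il18r1 was below the filter, with 0 counts in 10 samples and 3 counts at most. Il18bp, which encodes a decoy that binds the Il18 protein, had 2.31 ± 0.836 RPKM. Casp1, the gene of the cleaving enzyme, had a mean of 1.58 RPKM.

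Il33 and Tgfb1 are the 2 of the 10 genes that passed the threshold in any comparison, that of the sexes, so the 250 bases before their RefSeq starts are shown, 5′ to 3′ on the plus strand of GRCm38.p6. RefSeq promoters were found for 8 of the 10 genes; those of Il34 and Tgfb3 were not matched. The motif TATAAA was searched on both strands and is in capitals where it stands on the strand of the gene. Il33 has a pair of RefSeq starts. The upstream one follows chr19:29924863-29925112, and the other one follows chr19:29945540-29945789, which lies inside the gene and in no annotated exon. The window of Tgfb1 is chr7:25686752-25687001.
Il33 upstream start: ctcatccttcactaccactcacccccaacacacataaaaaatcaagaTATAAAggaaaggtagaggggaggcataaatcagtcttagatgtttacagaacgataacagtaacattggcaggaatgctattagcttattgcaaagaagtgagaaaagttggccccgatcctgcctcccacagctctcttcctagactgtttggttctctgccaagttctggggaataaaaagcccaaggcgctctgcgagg
Il33 inner start: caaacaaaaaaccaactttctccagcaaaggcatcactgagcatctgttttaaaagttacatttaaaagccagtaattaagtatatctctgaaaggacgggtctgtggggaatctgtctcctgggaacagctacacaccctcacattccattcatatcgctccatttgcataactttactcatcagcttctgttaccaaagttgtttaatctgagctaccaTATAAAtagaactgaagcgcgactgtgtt
Tgfb1: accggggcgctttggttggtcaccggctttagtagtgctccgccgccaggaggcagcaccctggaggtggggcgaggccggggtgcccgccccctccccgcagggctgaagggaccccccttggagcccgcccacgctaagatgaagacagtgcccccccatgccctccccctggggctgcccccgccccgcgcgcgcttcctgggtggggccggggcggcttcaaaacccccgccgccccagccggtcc
TATAAA begins 203 bases before the upstream Il33 start and 29 bases before the inner one. The Tgfb1 window does not hold these letters. Of 32851 promoters of the same length, 7.59% hold the motif on the strand of the gene and 12.4% on either strand. The windows of Tgfb2 and Cx3cl1 hold it on the strand of the gene as well, and that of Il18 holds it on the other strand. In the Cx3cl1 window 171 bases lie in annotated exons, the motif, 6 bases before the start, among them. The Il18 window, chr9:50554450-50554699, lies well upstream of the start of the counted gene. Base composition also set the windows apart. The Tgfb1 window has 21 CG pairs and 75.2% G and C, against medians of 6 and 52.4% over all promoters. The Il33 windows have 4 CG pairs each, with 45.2% and 39.6% G and C. These matches describe letters in the sequence, and use of either Il33 start was not measured here.

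Il16 (ENSMUSG00000001741.12, chr7:83642825-83745726, minus strand) encodes a large precursor whose released end attracts cells that carry Cd4. Its level was 5.05 ± 1.14 RPKM (SD, n = 20), with a range of 3.45 to 7.08. Il16 overlaps the coding gene Stard5 on the opposite strand, and also 2310044K18Rik and Phgdh-ps1, so its count is uncertain to that extent. Cd4 had 0 counts in 2 samples and a mean of 0.0903 RPKM. Its highest value, 0.729 RPKM from 89 counts, was in nPM female 1.

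The 3 transforming growth factor β genes differed in level. Tgfb2 (ENSMUSG00000039239.14, chr1:186622792-186705989, minus strand) had 6.17 ± 1.68 RPKM (SD, n = 20). Tgfb2 varied most between samples, with a coefficient of variation of 27.2% and a range of 3.65 to 9.89 RPKM. It overlaps Gm26169 and Gm29491. Tgfb3 (ENSMUSG00000021253.6, chr12:86056744-86079041, minus strand) had 2.01 ± 0.257 RPKM with a range of 1.49 to 2.67. It overlaps Ttll5 on the opposite strand, and also Gm37804. Tgfb1 (ENSMUSG00000002603.15, chr7:25687002-25705077, plus strand), the form that microglia make and depend on, was 11.1-fold below Tgfb3 in mean level. It was counted 14 to 39 times per sample, where counting alone gives a median coefficient of variation of 19.6%. All 3 proteins are stored in a latent form and signal through Tgfbr1 and Tgfbr2. Tgfbr1 had 8.24 ± 0.933 RPKM and Tgfbr2 had 3.12 ± 0.668 RPKM.

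Cx3cl1 and Cxcl12 are the chemokines. Cx3cl1 (ENSMUSG00000031778.13, chr8:94772009-94782427, plus strand), or fractalkine, is held on neuronal membranes or shed by the protease Adam10. Its level was 67.2 ± 13 RPKM (SD, n = 20), from 42.2 in control male 1 to 98.7 in control female 2. The receptor Cx3cr1, which in the brain marks microglia, had 8.86 ± 1.58 RPKM. Cxcl12 (ENSMUSG00000061353.11, chr6:117168535-117181367, plus strand) encodes a chemokine of vessels, meninges and the dentate stem cell niche. It had 2.75 ± 0.456 RPKM with a range of 1.73 to 3.49. Its signalling receptor Cxcr4 had 1.12 ± 0.423 RPKM, below its scavenging receptor Ackr3 with 3.05 ± 0.661 RPKM.

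Other cytokines and chemokines were mostly near the floor. Of 70 such genes in the table, 16 passed the filter, 3 had a mean of at least 1 RPKM and 50 had a mean under 0.1 RPKM. The median of their means was 0.0379 RPKM, against 5.61 RPKM for the 10 genes. As the 10 were chosen as genes that brain cells make, this contrast is partly set by the choice of lists. Cxcl14 led them with 18.4 RPKM, followed by Ccl27a with 9.63 and Ccl25 with 1.79 RPKM. Ccl17 had 0.989 RPKM and Cxcl5 had 0.745 RPKM. Only Cxcl14 and Ccl27a stood above Tgfb3, whereas 15 of the 70 stood above Tgfb1. Summed over the 70, the level was 32.2 to 43.2 RPKM per sample.

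The question of the exposure is whether breathing nPM in pregnancy leaves a mark on these signals in the adult offspring. Groups overlapped for every gene within each sex. Il16 shows the size of the overlap, since it had the highest fold change of the 10. In control females Il16 stood at 4.13, 3.45, 4.82, 5.79 and 7.08 RPKM, and in nPM females at 6.5, 6.24, 6.12, 4.95 and 4.01 RPKM. In control males it stood at 3.49, 4.85, 4.45, 4.07 and 5.08 RPKM, and in nPM males at 4.14, 6.03, 6.51, 3.54 and 5.84 RPKM. The highest value of all was in a control female, and nPM males spread over the range of control males and above it. Because the samples are bulk tissue, more cells that make a gene and more RNA per cell cannot be told apart in any of these comparisons.

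Differences were tested by limma-voom, a linear model of log2 counts that weights each value by its precision, over the 19797 genes past the filter. The threshold was an unadjusted p under 0.005, the one the authors used. With both sexes and sex as a covariate, 0 of the 10 genes passed it, where 0.141% of all genes did. At an unadjusted p under 0.05 limma also gave 0 of the 10, and at 0.005 the edgeR quasi-likelihood and DESeq2 Wald tests gave 0. Their log2 fold changes had a median of -0.0016, against -0.0059 over all genes, and 5 of the 10 were above 0. The lowest was that of Il34 with -0.08 (95% interval -0.32 to 0.15). The highest was that of Il16 with 0.19 (95% interval -0.09 to 0.47, n = 10 against 10, limma p = 0.165). No 95% interval of the 10 reached beyond -0.36, its lower end for Tgfb2, or 0.47, its upper end for Il16. For Cx3cl1, the most abundant of the genes, the interval ran from -0.21 to 0.25 around a log2 fold change of 0.02. Leaving out 1 sample moved Il34 between -0.15 and -0.02 and Il16 between 0.14 and 0.25, and turned the sign of Il33, Il18, Tgfb1, Tgfb2, Cx3cl1 or Cxcl12, all of which had log2 fold changes within 0.05 of 0.

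Within each sex 0 of the 10 genes passed as well, and the intervals were wider. Directions were not shared by the sexes for every gene, with Cx3cl1 at -0.11 in females and 0.15 in males. The comparisons within a sex use the same animals as the one with both sexes, so they are given side by side and not as separate evidence. In females 0 of the 10 genes had a limma p under 0.005, where 0.0859% of all genes did, and 6 of the 10 were above 0. The median log2 fold change was 0.02 against -0.01 over all genes. Tgfb2 had the highest change in females with 0.19 (95% interval -0.25 to 0.62; exact permutation test p = 0.437), and Cx3cl1 the lowest with -0.11 (95% interval -0.45 to 0.22). Single samples moved both values. Tgfb2 was 0.06 without control female 1 and 0.30 without control female 5, and Cx3cl1 was -0.20 without control female 3 and 0.02 without nPM female 4. In males 0 of the 10 genes passed, where 0.207% of all genes did, and 4 of the 10 were above 0. Their median was -0.09, beside -0.0013 for all genes. Il16 had 0.21 in males (95% interval -0.16 to 0.59; exact permutation test p = 0.278). Tgfb2 had -0.21 (95% interval -0.70 to 0.29; exact permutation test p = 0.468). With 1 sample left out Il16 ran from 0.13 to 0.35 and Tgfb2 from -0.38 to -0.08, in both cases between the fits without nPM male 3 and without nPM male 4. At an unadjusted p under 0.05 limma gave 0 of the 10 in either sex, and at 0.005 edgeR and DESeq2 also gave 0. The plot of differences after nPM shows each interval crossing 0.

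**Figure D2:**
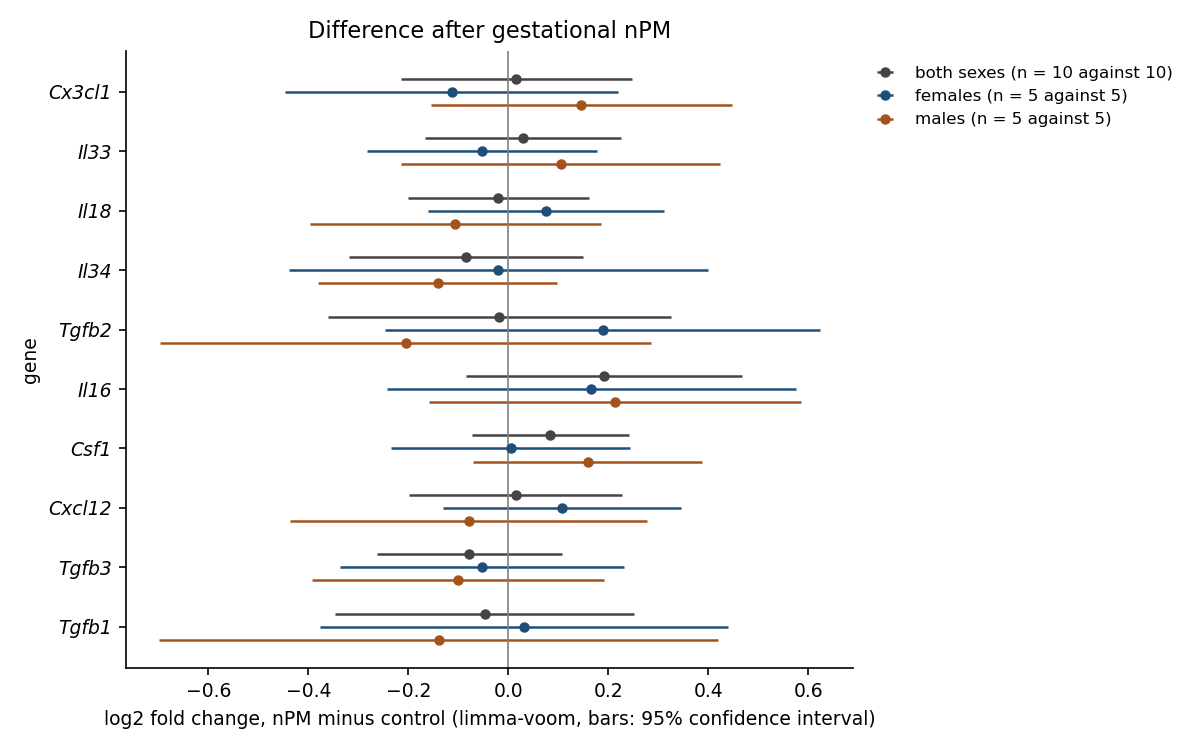
Log2 fold change after gestational nPM (limma-voom, nPM minus control) for each gene, with bars for 95% confidence intervals, in both sexes (grey, n = 10 against 10), females (blue, n = 5 against 5) and males (brown, n = 5 against 5). Every bar crosses 0, and the points lie between -0.21 and 0.21.

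Whether the exposure acted differently in the sexes was tested as the interaction, the change in males minus that in females. None of the 10 passed limma's p under 0.005, a count of 0 where 0.217% of all genes passed. At p under 0.05 limma gave 0, and the edgeR and DESeq2 tests gave 0 at 0.005. The median over the 10 was -0.09 against 0.01 over all genes. Tgfb2 had the lowest value with -0.39 (SE 0.33, limma adjusted p = 0.988), from 0.19 in females and -0.21 in males. Cx3cl1 had the highest with 0.26 (SE 0.22, limma adjusted p = 0.988). Without nPM female 4 it was 0.13, and with any 1 sample left out Tgfb2 ran from -0.59 to -0.27.

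Genes that receive, release or relay these signals were listed along with the 10. After nPM with both sexes, limma's p was under 0.005 for 0 of 13 tested receptor genes, 0 of 18 genes of release and activation and 0 of 14 genes of signal transduction. At p under 0.05 limma also gave 0 in each of the 3 lists. All 13 receptor genes were above 0, with a median log2 fold change of 0.09 against -0.0059 over all genes. In females 11 of the 13 were above 0, at a median of 0.16, and in males 10, at 0.07. In the interaction 4 of the 13 were above 0, at -0.11. Cx3cr1 had 0.13 (95% interval -0.07 to 0.34) and Csf1r had 0.07 (95% interval -0.09 to 0.23). Among 16 other cytokines past the filter 1 passed, or 6.25% beside the 0.141% of all genes, which was Il12a with -1.06. Il12a was counted 3 to 34 times per sample, and its limma adjusted p was 0.9998. No gene of this fit had a limma adjusted p under 0.05. Marker genes were listed for 15 cell types and regions, and 0 of their 125 tested genes passed, with 2 at a limma p under 0.05, where 2.1% of all genes had one. In females, in males and in the interaction, limma's threshold was passed by 0 genes of receptors, release, transduction, other cytokines and the marker lists. At p under 0.05, which 2%, 4.28% and 3.79% of all genes reached in these 3 fits, the marker lists had 5, 5 and 7 genes. Of 13 receptor genes 0 did so in each, of 18 genes of release and activation 0, 0 and 1, and of 14 genes of signal transduction 0, 1 and 1. Of 16 other cytokines 3, 2 and 2 did so, in each fit a larger share than that of all genes, on few genes. Of 14 microglia markers 14 were above 0 with both sexes, at a median of 0.07, 13 in females at 0.21 and 8 in males at 0.0024. In the interaction 3 of the 14 were above 0, at a median of -0.22, and 4 had a limma p under 0.05. Other lists shifted further, again with 0 genes past the threshold. With both sexes the largest medians were 0.44 in blood, with 3 of 3 genes above 0, and -0.24 in neocortex, with 0 of 7. Choroid plexus had 9 of 10 genes above 0 in females, at a median of 0.96, 1 of 10 in males, at -0.45, and 1 of 10 in the interaction, at -1.43. In the interaction blood had 3 of 3 above 0, at 0.70, meningeal fibroblasts 0 of 10, at -0.59, and oligodendrocytes 10 of 10, at 0.29. Neocortex, striatum, thalamus and dentate granule neurons had medians between -0.37 and 0.35 there.

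Il33 and Tgfb1 differed between the sexes. In control females Il33 stood at 20.6, 15.1, 18.8, 17.3 and 17.4 RPKM, and in nPM females at 14.6, 17.1, 19.5, 15.5 and 19.3 RPKM. In control males it stood at 20, 25, 20.5, 27.5 and 26.4 RPKM, and in nPM males at 34.0, 30.1, 23.1, 21.2 and 21.5 RPKM. Of the 10 males, 8 were above the highest female, and control males 1 and 3 were just under it. Over both exposures, females ran from 14.6 through a median of 17.4 to 20.6 RPKM, and males from 20 through 24.0 to 34.0 RPKM. Il33 was higher in males by 0.49 on the log2 scale, or 1.41-fold (SE 0.094, n = 10 a sex, limma p = 3.5e-05, Benjamini-Hochberg adjusted p = 0.00035). Exact permutation tests gave p = 0.0238 in controls and p = 0.00794 after nPM, the smallest that 5 animals against 5 allow.

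Tgfb1 went the other way. It stood at 0.203, 0.197, 0.241, 0.188 and 0.229 RPKM in control females and at 0.216, 0.227, 0.213, 0.249 and 0.182 RPKM in nPM females. Control males had 0.118, 0.177, 0.168, 0.155 and 0.144 RPKM, and nPM males had 0.137, 0.0889, 0.173, 0.11 and 0.21 RPKM. Of the 10 males, 9 were below the lowest female, and nPM male 5 fell among the females. Medians were 0.215 RPKM in females and 0.15 RPKM in males. Tgfb1 fell by 0.55 on the log2 scale in males (SE 0.14, n = 10 a sex, limma p = 0.000996, Benjamini-Hochberg adjusted p = 0.0044). Exact permutation tests gave p = 0.00794 in controls and p = 0.0159 after nPM. Whichever of the 20 samples was left out, both genes still passed 0.005 in limma's test.

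These 2 of 10 genes must be read against the whole table. The threshold was passed by 6147 of 19797 genes, or 31.1%, in the comparison of males and females, a larger share than the 20% of the 10. The difference is therefore one that a large part of the transcriptome showed and not a result about these cytokines. Extraction date and sequencing batch of the animals are not given in the sources used here, so whether either differed between the sexes could not be checked. Over the 10 the median was -0.11, against 0.02 over all genes, and 3 of the 10 were above 0. With n = 10 a sex, Cx3cl1 had -0.24 (limma p = 0.042), Cxcl12 had -0.22 (limma p = 0.046) and Csf1 had -0.14 (limma p = 0.073), all above the threshold. Without nPM female 4 the limma p of Cx3cl1 was 0.0040, with a log2 fold change of -0.32. Males were older than females throughout, so a fit with both sex and age estimates the sex difference with little precision. A call lost in such a fit does not show that the difference is absent. With age in weeks as a covariate 84 genes passed and 0 of the 10, with Il33 at 0.23 (limma adjusted p = 0.961) and Tgfb1 at -0.22 (limma adjusted p = 0.977). Tgfb2 turned to -0.079 and Cx3cl1 to 0.11 in that fit. There, 0 of the 10 also had a limma p under 0.05, and edgeR and DESeq2 were not run with age. In controls alone 3676 genes passed, among them Il33 with 0.40 (limma adjusted p = 0.0177), while Tgfb1 had -0.48 (limma adjusted p = 0.0955).

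**Figure D3:**
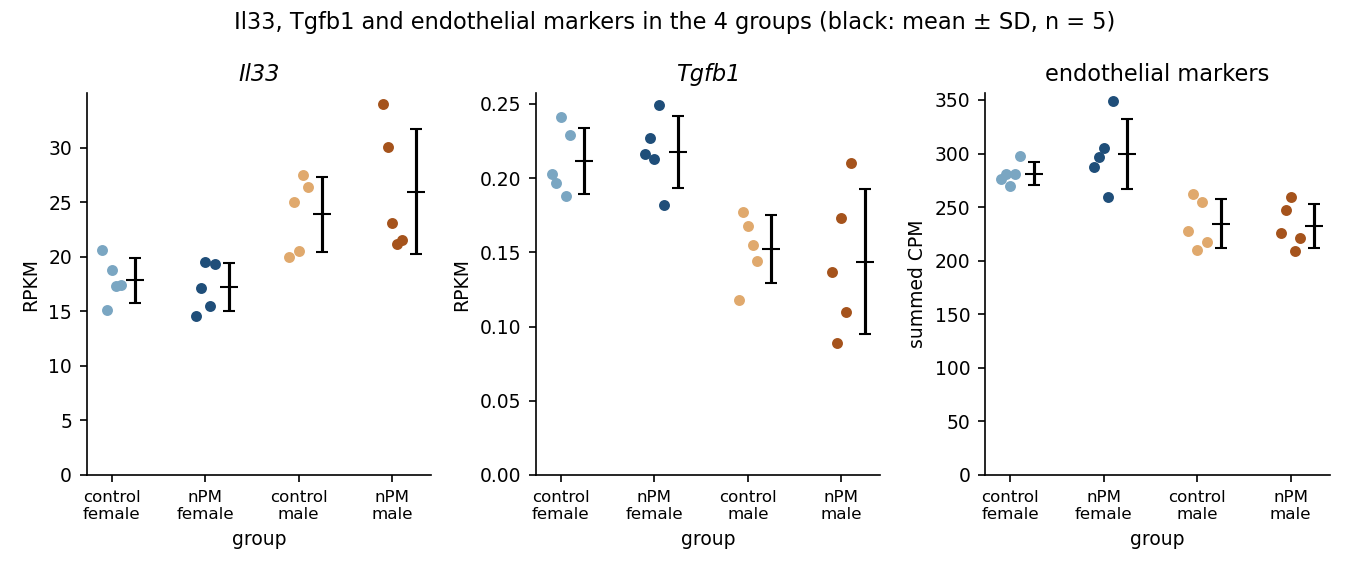
Il33 and Tgfb1 (RPKM) and the summed markers of endothelial cells (CPM, counts per library size) in each sample of the 4 groups, with black bars for mean ± SD (n = 5). Il33 lies higher in most males, Tgfb1 and the endothelial sum lower.

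Marker lists of several cell types held genes past the threshold as well, to be read against the same 31.1% of all genes. Levels of markers are given in CPM, the counts scaled to library size. Of 10 oligodendrocyte genes all were above 0 in the fit of males minus females, at a median of 0.32, and 3 (30%) passed the threshold, Ermn, Opalin and Ugt8a, named after their values were seen. Endothelial markers, led by Slco1a4, summed to 259 to 349 CPM in females and 209 to 262 CPM in males. Of these 10 genes 1 was above 0, and 6 (60%) passed, all lower in males. Of 14 microglia genes all were above 0, at a median of 0.26, and 5 (35.7%) passed. Of 10 astrocyte genes 7 were above 0 and 4 (40%) passed, all higher in males, while their sum, led by Slc1a2, was 6200 to 7230 CPM in females and 5630 to 7000 CPM in males. Of the mural list 1 of 8 genes passed, lower in males, and of the dentate granule neuron list 2 of 7, one in each direction. The lists of choroid plexus, ependyma, meningeal fibroblasts, blood, CA pyramidal neurons, interneurons, neocortex, striatum and thalamus had 0 genes past limma's threshold. Some of these lists shifted further without passing it. The median was 1.23 in choroid plexus with 10 of 10 genes above 0, 1.63 in blood with 3 of 3 and 0.57 in ependyma with 7 of 7, and 0, 3 and 1 of them had a limma p under 0.05. Across all 15 lists 21 of 125 tested genes passed the threshold, against 31.1% of all genes, and 42 had a limma p under 0.05, against 48.4%. No oligodendrocyte, endothelial, microglia or astrocyte marker was at 0 in any sample. Depth differed too, with a median of 28703343 counted reads in females and 33972826.5 in males. By group the medians were 29685090 in control females, 28290787 in control males, 28694048 in nPM females and 35153717 in nPM males. Mitochondrial genes took 11.1 to 13.3% of counts in control females and 13.5 to 14.3% in control males, with no overlap, and 12.1 to 15.7% in nPM females and 11.4 to 13.9% in nPM males. Ribosomal RNA genes, those of mitochondria included, took 9.16 to 11.4% in control females and 11.5 to 11.9% in control males, again with no overlap, and 10.2 to 13.3% in nPM females and 9.38 to 11.8% in nPM males. The part of cell types, depth and RNA composition in the differences of Il33 and Tgfb1 was not tested.

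Receptor genes passed the threshold between the sexes in 3 of 13 cases, or 23.1%. Tgfbr1 stood at 6.69 to 8.31 RPKM in females and 8.37 to 10.1 RPKM in males, with no overlap, and was higher in males by 0.27 (SE 0.042, n = 10 a sex, limma p = 2.3e-06). Eng, an accessory receptor of endothelial cells, ran from 1.03 to 1.9 RPKM in females and from 0.598 to 1.19 RPKM in males, a fall by 0.74 in males (SE 0.13, n = 10 a sex, limma p = 1.5e-05). Endothelial markers were lower in males as well, and their part in the value of Eng was not tested. Cxcr4, the receptor of Cxcl12, had medians of 0.865 RPKM in females and 1.55 RPKM in males, at 0.64 with n = 10 a sex and limma p = 0.0047. The call of Cxcr4 was weak, with p above 0.005 in 14 of 20 fits that left out 1 sample and 0.0115 without nPM female 4. Csf1r had 0.08 (95% interval -0.09 to 0.24) and Cx3cr1 0.27 (n = 10 a sex, limma p = 0.011), neither past the threshold.

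Of the 18 genes of release and activation 4 passed, or 22.2%. Il18bp, the decoy of Il18, stood at 2.19 to 4.1 RPKM in females and 1.23 to 1.79 RPKM in males, so the sexes did not overlap. It fell by 0.90 in males (SE 0.11, n = 10 a sex, limma p = 3.1e-08), while Il18 itself had -0.09 (limma p = 0.324). Ltbp4, which tethers latent transforming growth factor β to the matrix, had medians of 1.07 RPKM in females and 0.716 in males and fell by 0.59 (n = 10 a sex, limma p = 4.2e-05). Itgb8, the integrin subunit that frees Tgfb1 from its latent form, was higher in males by 0.40 (n = 10 a sex, limma p = 0.000115), with medians of 10.8 and 14.9 RPKM. Adam10, the sheddase of fractalkine, was higher by 0.15 (n = 10 a sex, limma p = 0.0023). Its p was 0.0133 without nPM male 3 and above 0.005 in 5 of the 20 such fits. Of 14 signal transduction genes 1 passed, or 7.14%. This was Ski, a repressor of Smad proteins, with -0.19 (n = 10 a sex, limma p = 0.0048), a p that was above 0.005 in 14 of 20 fits without 1 sample and 0.0107 without control female 5. Of 16 other cytokines 1 passed, or 6.25%, which was Ccl25 with 1.72 to 3.28 RPKM in females, 1.05 to 1.63 RPKM in males and a fall by 0.63 (n = 10 a sex, limma p = 2.2e-05). All of these shares lay below the 31.1% of the whole table, and with age as a covariate 0 of the genes that had passed had a limma p under 0.005 and 1, Il18bp, had one under 0.05. Ski turned to 0.05 in that fit, where the lack of overlap in age between the sexes leaves the sex difference imprecise. There Eng had -0.81, Il18bp -0.72 and Ltbp4 -0.53, while Tgfbr1 had 0.16, Cxcr4 0.27 and Adam10 0.11. Itgb8 had 0.04 and Ccl25 -0.13.

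Apart from sex and exposure, animals of 1 group differed among themselves, and some of the genes varied with markers of particular cells. Each gene was set against the mean of each of 15 marker lists, in log2 CPM with the mean of its group removed, which made 150 pairs over 20 samples. Benjamini-Hochberg adjusted permutation p-values were under 0.05 for both r and rho in 5 pairs. The permutations exchanged all 20 values freely after the means of the 4 groups had been removed. Fewer than 20 values are then independent, so these p-values are somewhat too small. Pairs near the threshold might not pass a test that accounts for this. The share of all genes that would pass against these lists is not given. The 5 pairs therefore cannot be called particular to these cytokines. Il33 was higher where oligodendrocyte markers were higher, with Pearson r = 0.745 (permutation p = 8e-05, adjusted p = 0.006) and Spearman rho = 0.839 (permutation p = 1e-05, the smallest that 100000 permutations give, adjusted p = 0.0015). The relation held in both sexes, with r = 0.711 in females and 0.763 in males, and r was 0.765 without control male 1 and nPM male 4. Il16 followed the markers of CA pyramidal neurons, led by Cpne4, with r = 0.783 (permutation p = 6e-05, adjusted p = 0.006) and rho = 0.809 (permutation p = 7e-05, adjusted p = 0.00525). Within females r was 0.733, within males 0.904, and without nPM females 3 and 5 it was 0.808.

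Tgfb2 fell where neocortex and interneuron markers rose, and not with neuron markers in general. Against dentate granule and CA pyramidal neuron markers its r was 0.634 and 0.572 (permutation test, adjusted p = 0.054 and 0.0899). Against neocortex markers r was -0.725 (permutation p = 0.00054, adjusted p = 0.0255) and rho -0.714 (permutation p = 0.0007, adjusted p = 0.0262). The value was -0.928 within females, -0.531 within males and -0.754 without control female 2 and nPM male 5. Against interneuron markers Tgfb2 had r = -0.672 (permutation p = 0.00135, adjusted p = 0.0405) and rho = -0.699 (permutation p = 0.0009, adjusted p = 0.027), with -0.681 in females, -0.764 in males and -0.594 without control females 2 and 5. This last relation missed the threshold with the first principal component of the list in place of its mean, at r = -0.394 (permutation test, adjusted p = 0.289). Cxcl12 rose with choroid plexus markers, with r = 0.689 (permutation p = 0.00068, adjusted p = 0.0255) and rho = 0.659 (permutation p = 0.00196, adjusted p = 0.0367). The choroid plexus sum, carried mostly by Ttr, ran from 35.2 CPM in control male 3 to 8370 CPM in nPM female 1, and without these samples r was 0.684. Within females r was 0.579 and within males 0.753. With group means kept in, Tgfb2 had adjusted p = 0.0694 against neocortex and 0.114 against interneurons, and Cxcl12 had 0.182 against choroid plexus, all by permutation. No gene of these 4 lists was at 0 in any sample. Neocortex sums, led by Rorb, ran from 112 CPM in nPM female 1 to 270 CPM in control female 2, interneuron sums, led by Gad1, from 522 to 846 CPM and CA pyramidal sums from 379 to 612 CPM. How much each dissection held of these cells was not measured.

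**Figure D4:**
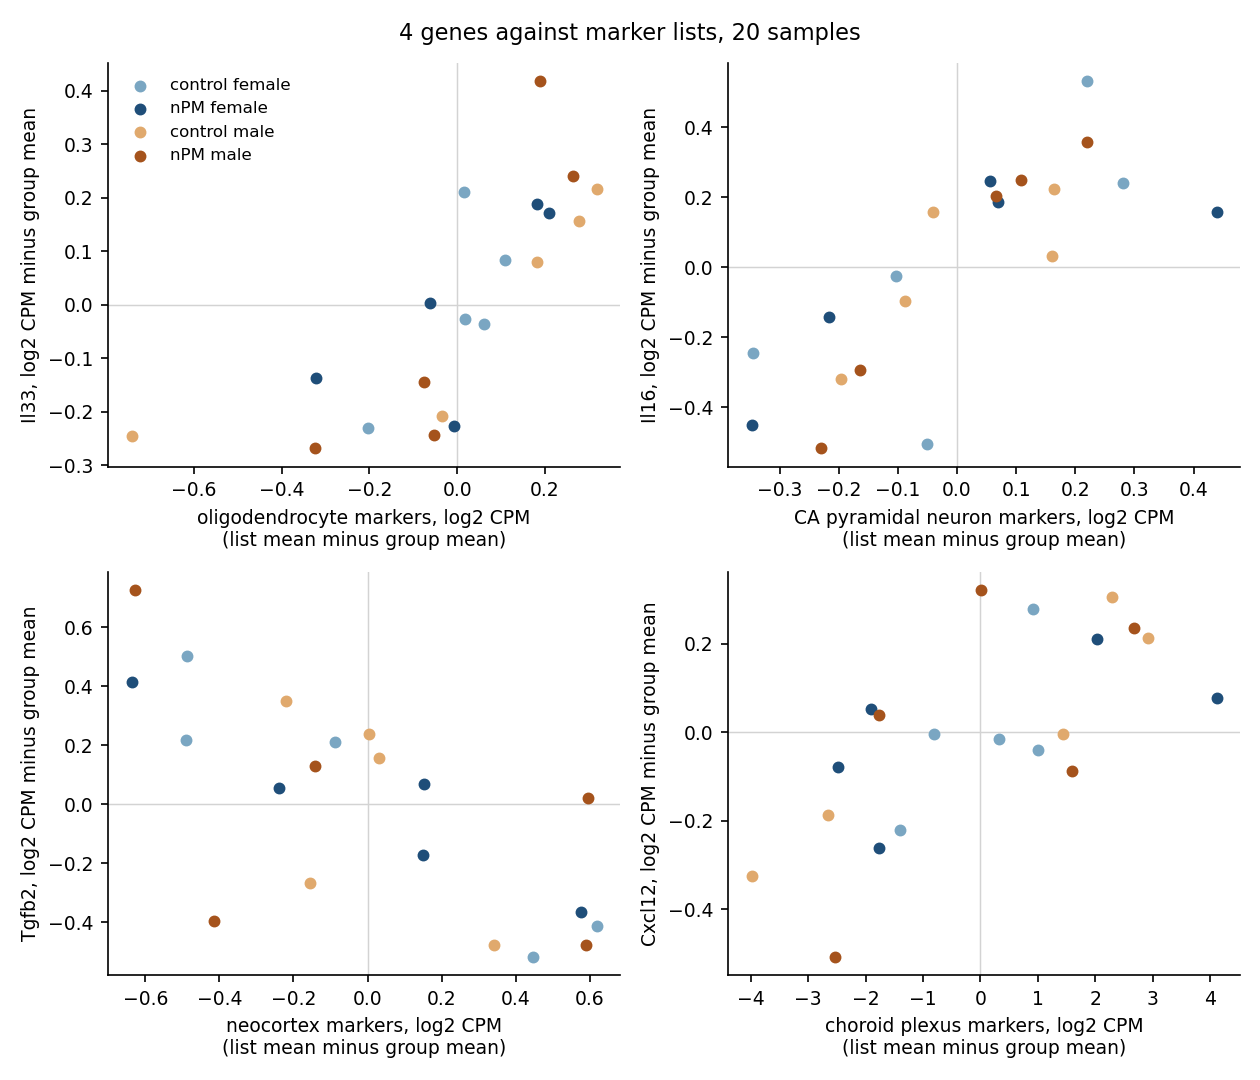
Il33, Il16, Tgfb2 and Cxcl12 (log2 CPM minus group mean, y axes) against the mean of oligodendrocyte, CA pyramidal neuron, neocortex and choroid plexus markers (log2 CPM minus group mean, x axes) in the 20 samples, coloured by group. Pearson r is 0.745, 0.783, -0.725 and 0.689 in the 4 panels.

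The 10 genes were also set against each other, a comparison added after the data were seen. Of 45 pairs, 23 had an r below 0, so they did not vary as one block. Adjusted permutation p-values were under 0.05 for both r and rho in 2 pairs, with the same limit as those against the marker lists. Il16 and Tgfb2 varied together with r = 0.804 (permutation p = 3e-05, adjusted p = 0.00135) and rho = 0.761 (permutation p = 0.00015, adjusted p = 0.00337), and r = 0.76 without nPM male 4 and control female 2. Il34 and Cx3cl1, both made by neurons, varied together with r = 0.764 (permutation p = 0.0001, adjusted p = 0.00225) and rho = 0.789 (permutation p = 0.00011, adjusted p = 0.00337). Without nPM females 4 and 3, the lowest and highest in Il34, r was 0.671. Among the transforming growth factor genes no pair passed for both. Tgfb1 and Tgfb3 had r = -0.602 (permutation p = 0.00547, adjusted p = 0.0606) and rho = -0.704 (permutation p = 0.00074, adjusted p = 0.0111). Without nPM males 5 and 2 their r was -0.585, and since r missed the adjusted threshold this pair was not among the 2. By permutation, Tgfb2 and Tgfb3 had r = -0.582 (adjusted p = 0.0606), and Tgfb1 and Tgfb2 had r = 0.325 (adjusted p = 0.461).

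Beyond the lists, each gene was compared with 11902 coding genes of at least 1 RPKM, 11903 for Tgfb1, which is itself below that level. The most alike are named by r over the 20 samples with group means removed, as a description without a test. Il16 was most like Smoc2 with r = 0.933, then Rnf182 and Ccbe1. Il33 was most like Sept4 with r = 0.93, then Efhd1 and Mcam. Cx3cl1 varied with Tmem151a at r = 0.924, then with B4galnt1 and Bahd1, while Il34 varied with Ankrd34a at r = 0.911, then with Tmem198 and Rnft2. For Csf1 the nearest was Kif13b with r = 0.905, before Cep164 and Fmnl3. For Tgfb2 it was Lamb1 with r = 0.887, before Afap1l2 and Dnah9. Cxcl12 was nearest to Nr2e1, a gene of neural stem cells, with r = 0.877, then to Per2 and Wwc1. Il18 was nearest to Ltn1 with r = 0.859, then to Zfp758 and Atp6v1h. Tgfb1 was nearest to Polr2a with r = 0.827, then to Ago1 and Elk4, and Tgfb3 to Tmsb10 with r = 0.797, then to Sod2 and Cnih3. At 14 to 39 counts of Tgfb1 per sample, counting alone gives a median coefficient of variation of 19.6%, beside 24.8% over samples.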

How the data were processed

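RNA was measured in 20 hippocampus samples. The authors depleted ribosomal RNA, aligned with HISAT2 to mm10, counted with featureCounts 1.5.0-p3 on Gencode M11, and the deposited values are these raw counts. The authors also deposited each gene's length in bases and its mean RPKM over the samples, and the mean RPKM was used in no test. The 10 genes and the gene lists were chosen with earlier results of these data known.

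From the counts, TMM factors and RPKM were computed with edgeR 4.0.16. The function filterByExpr (minimum count 10, total 15) kept 19797 of 48709 genes. limma 3.58.1 (R 4.3.3) fitted voom weights with an offset of 0.5. Adjusted p-values are Benjamini-Hochberg over all genes tested. Fits were checked on simulated data. Total counts of 19092067 to 38663408 limit precision most for Tgfb1.

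Named were the 10 genes, the main receptors, each listed pathway gene or other cytokine past p under 0.005 in any comparison, the 5 other cytokines highest by mean RPKM, and the 3 coding genes most like each of the 10. Within a sex, two-sided exact permutation tests of single genes ran over 252 groupings, correlations by 100000 permutations. Marker lists were those of microglia, astrocytes, oligodendrocytes, endothelium, mural cells, choroid plexus, ependyma, meningeal fibroblasts, blood, dentate granule neurons, CA pyramidal neurons, interneurons, neocortex, striatum and thalamus with habenula. Alternatives were the edgeR quasi-likelihood and DESeq2 1.42.0 tests, RLE normalization, no filter, a replicate block, age as a covariate, all 4 groups in 1 fit, control samples only, other scalings of RPKM and of the lists, and left-out samples. Python 3.11.15, numpy 2.4.6, pandas 2.3.3, scipy 1.17.1 and matplotlib 3.10.9 were used. Promoters came from RefSeq (GRCm38.p6), exons under them from Gencode M21.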

Additional observations from a re-analysis of the deposited data

Results flagged for a closer look

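In 19 of 184 groups of 5 samples, 1 sample lay far from the other 4, by more than 0.71 of the range of the group. Chance alone gives about 1 in 20 groups, or 9.2 of 184.

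Among the 10 genes, Il18 was at 22.3 RPKM in nPM male 2, with the next male of that group at 17.6. Csf1 was at 3.98 RPKM in nPM female 5, with the next at 3.66, and at 4.19 RPKM in nPM male 1, with the next at 3.46.

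Among genes around them, the sample far from its group was nPM female 4 for Il18r1 (0.034 RPKM, next 0.00686, at most 3 counts and so no more than a count of 0 allows, which says nothing of the sample), Ltbp4 (0.616 RPKM, next 0.992) and Ccl17 (1.7 RPKM, next 1.11). It was nPM female 1 for Cd4 (0.729 RPKM, next 0.0895). For Adam10 it was control male 1 (27.6 RPKM, next 25.8), and for Itgb8 nPM male 3 (17.0 RPKM, next 14.9). Il12a was at 0.204 RPKM in nPM female 3 (next 0.0971) and at 0.738 RPKM in control male 3 (next 0.394).

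Among the summed markers, nPM female 1 had 8370 CPM of choroid plexus genes (next 1810) and 363 CPM of striatum genes (next 76.8). Control male 1 had 42.9 CPM of blood genes (next 6.57). Astrocyte genes summed to 6230 CPM in control female 1 (next 6980) and interneuron genes to 522 CPM in control female 5 (next 692). Mural genes summed to 167 CPM in nPM male 2 (next 156), neocortex genes to 256 CPM in control male 3 (next 191), and genes of thalamus and habenula to 244 CPM in nPM male 1 (next 126). No cause was tested for any of these values.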

How the results depend on the processing

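None of the 10 genes passed p under 0.005 after nPM, or in the interaction, under any alternative by limma, edgeR or DESeq2. Among alternatives other than single left-out samples, 402 of 430 values of single genes and 57 of 74 counts kept direction and side of the threshold. With samples left out in turn these were 912 of 1000 and 149 of 160. Depth limits Tgfb1 most, at 14 to 39 counts. Where values moved, the cause was not tested unless fewer genes or samples were used.

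The number of genes past p under 0.005 with both sexes was 43 by DESeq2 and 71 without the filter. In females it was 28 by edgeR, 57 by DESeq2 and 89 without the filter. In males it was 102 by DESeq2 and 132 without the filter, and for the interaction 66 by edgeR, 89 by DESeq2 and 149 without the filter. An alternative without nPM females 1 and 4 was chosen after seeing the data. It gave 46 genes with both sexes and 37 in females, and in females Il34 at 0.19, Il33 at 0.073, Tgfb1 at -0.025 and Cx3cl1 at 0.037, all turned in sign. Between the sexes it gave Cx3cl1 at -0.33 (limma adjusted p = 0.0146, past 0.005 unadjusted) and Cxcr4 at 0.59 (limma adjusted p = 0.025, no longer past it). Csf1 in females, 0.0046 as reported, turned to -0.014 by edgeR and -0.014 by DESeq2. Ski did not pass by edgeR (-0.19, adjusted p = 0.0164) or without the filter (-0.18, limma adjusted p = 0.0344).

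A replicate block on the sample numbers gave 20 genes with both sexes, 21 in females, 35 in males and 43 for the interaction, with 0 of the 10 in each, and Csf1 in females at -0.0165. The numbers did not pair samples by likeness of expression: same-numbered animals of the exposure groups correlated by -0.364 to 0.157, and an animal's own number was never its best match. Whether the numbers stand for litter or batch is not given.

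Between the sexes, age as a covariate left 84 genes and 0 of the 10, and controls alone 3676 genes and 1 of the 10. Ages of the sexes did not overlap, so the fit with age estimates the sex difference with little precision. With age, Tgfb2 turned to -0.079, Cx3cl1 to 0.11 and Ski to 0.0503. The genes that no longer passed were Il33 at 0.23, Tgfb1 at -0.22, Tgfbr1 at 0.16, Eng at -0.81, Cxcr4 at 0.27, Il18bp at -0.72, Ltbp4 at -0.53, Itgb8 at 0.04, Adam10 at 0.11 and Ccl25 at -0.13. In controls alone Tgfb1 at -0.48, Cxcr4 at 0.70, Adam10 at 0.18 and Ski at -0.27 did not pass.

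With 1 sample left out, gene counts with both sexes ran from 17 (without control female 1) to 47 (without nPM female 4), with 45 without control female 5. In females they ran from 9 (without nPM female 5) to 48 (without nPM female 4), with 29 without control female 5 and 32 without nPM female 1. In males they ran from 22 (without nPM male 5) to 78 (without nPM male 4), and for the interaction from 24 (without control female 3) to 77 (without control female 1). The changes that turned in sign with both sexes were Il33 (-0.0299 to 0.0584), Il18 (-0.0662 to 0.0275), Tgfb1 (-0.10 to 0.0176), Tgfb2 (-0.0906 to 0.053), Cx3cl1 (-0.0441 to 0.0867) and Cxcl12 (-0.0194 to 0.0797). In females they were Il34 (-0.16 to 0.13), Il33 (-0.11 to 0.0092), Csf1 (-0.0667 to 0.0628), Tgfb1 (-0.0121 to 0.11), Tgfb3 (-0.11 to 0.0321) and Cx3cl1 (-0.20 to 0.0177). In males they were Il33 (-0.0112 to 0.17), Tgfb1 (-0.28 to 0.00031) and Cxcl12 (-0.16 to 0.0444), and in the interaction Il34 (-0.27 to 0.0196), Il16 (-0.0889 to 0.18) and Tgfb3 (-0.15 to 0.0253). Between the sexes Cx3cl1 ran from -0.32 to -0.18.

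Without mitochondrial and ribosomal RNA genes, Il18 had 22.3 RPKM, Csf1 4.07 RPKM and Tgfb3 2.31 RPKM, each up by more than 1 SD. With the first principal component of the list, Tgfb2 and interneurons had r = -0.394. With group means kept in, 3 of 150 pairs passed, while Tgfb2 had r = -0.527 against interneurons and -0.632 against neocortex, and Cxcl12 had r = 0.467 against choroid plexus.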
